A study of Mus musculus with 294 samples.

Results

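Gata4, Gata6, Tbx20, Tbx2, Tbx3, Hand1, Hand2, Isl1 and Meox1 encode transcription factors of the developing heart and its outflow tract, the vessel trunk that divides into aorta and pulmonary artery. These 9 genes were taken by name from the 15124 genes of the deposited read counts, and all 9 had a row. RNA was sequenced from single EYFP-positive cells of embryonic mouse hearts carrying Wnt1-Cre and the R26-EYFP reporter, sorted by fluorescence after dissection around the septum between aorta and pulmonary artery, captured on Fluidigm C1 chips and imaged one by one. The series spans embryonic days 11.5 to 17.5, with 12.5 and 14.5 between, but no stage, animal or chip is given for a cell, so all cells formed 1 untreated group and counted as 1 sample. The Wnt1-Cre driver marks descendants of the neural crest permanently, so EYFP tells the lineage of a cell and not its present type.

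GATA4 and GATA6 are zinc-finger proteins that open and activate cardiac and smooth muscle genes, and they work together with T-box and HAND proteins on shared enhancers. TBX20 activates or represses genes in heart mesenchyme and muscle, whereas TBX2 and TBX3 are mainly repressors, best known from the conduction system and the cushions that form valves. HAND1 and HAND2 are basic helix-loop-helix proteins that pair with E proteins, ISL1 is a LIM-homeodomain protein of heart progenitors and of several kinds of neurons, and MEOX1 is a homeodomain protein of mesenchyme first known from the somites.

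Totals ran from 34046 to 3033857 reads per cell (median 1204543), with 2041 to 8805 genes having a read (median 4406.5). The first digit of the cell name, which no label explains, split the cells into 7 name series of 58, 48, 38, 38, 34, 34 and 44 cells (series 1 to 7, together all the cells), which are not groups of the study. In series 1, genes abundant in that series had reads in nearly every cell at a low level: the low end of such genes was above 0 in all 58 cells, with a median of 2.43% of the series mean, against a median of 0 in each other series. Applied to the series 1 means of the 9 genes, that median fraction reached the limit of 10 CPM used here only for Tbx20 (23.8 CPM). With each cell's own fraction, up to 37.1%, it was reached in all 58 cells for Tbx20 and in 12 for Gata6. It was reached in 10 for Meox1, in 7 for Gata4 and in 0 for the other 5 genes. The series 1 shares of Tbx20, Gata6, Meox1 and Gata4 are therefore taken as upper limits. Series 1 also had more genes with a read per cell (median 7718) than the other series (medians 3123 to 4676.5). The source of the low level was not tested. Levels are in CPM, the reads of a gene per 1e+06 reads of the cell, and a gene counts as detected in a cell from 10 CPM upwards. The 8 mesenchyme markers that were checked were each detected in 50% of cells or more, whereas the glial and early crest marker Sox10 was detected in 14 cells.

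The factors fell into widely and rarely detected genes. Tbx20 was detected in 89.8% of all cells (exact 95% interval 85.8 to 93.01), that is in all but 30 cells, and Gata6 in 86.7% (82.3 to 90.4), all but 39 cells. Meox1 was detected in 180 cells (61.2%, 55.4 to 66.8) and Gata4 in 55.4% of cells (49.6 to 61.2). Those 4 genes passed 50% of cells, as did 14.4% of all 15124 genes. Hand2 followed with 48.3% of cells (42.5 to 54.2) and Tbx3 with 40 cells (13.6%, 9.90 to 18.1), a range of shares (10% to 50%) that held 44.1% of all genes. Hand1 (23 cells, 7.82%, 5.02 to 11.5), Tbx2 (22 cells, 7.48%, 4.75 to 11.1) and Isl1 (21 cells, 7.14%, 4.48 to 10.7) were under 10%, like 41.5% of all genes. In that order the intervals of direct neighbours overlapped except between Gata6 and Meox1 and between Hand2 and Tbx3. Such intervals reflect counting error alone, and since no molecular identifiers are named, reads do not stand for separate molecules.

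**Figure D1:**
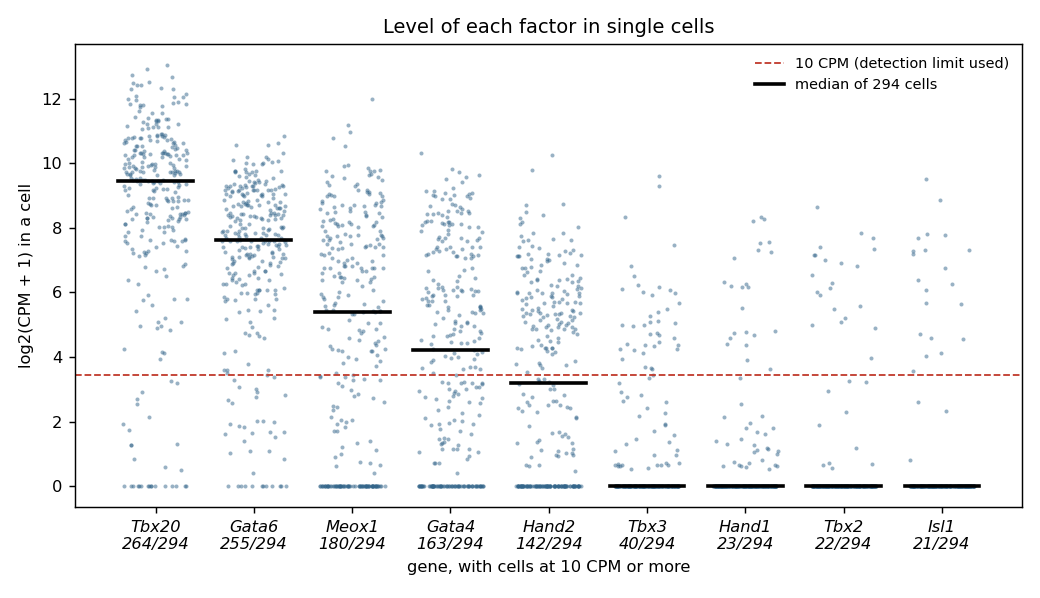
Each point is 1 cell and gives log2(CPM + 1) of a gene; black bars are medians and the dashed line is 10 CPM. The medians of Tbx20, Gata6, Meox1 and Gata4 lie above the line, that of Hand2 (8.20 CPM) just under it, and those of Tbx3, Hand1, Tbx2 and Isl1 at 0.

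Gata6 was the steadier of the GATA pair. Gata6 lies on chromosome 18, its CPM ran from 0 to 1842 with a median of 195.8, and 200 cells (68.03%) had 100 CPM or more. Gata4, on chromosome 14 (63198922 to 63271692 of GRCm38, minus strand), ran from 0 to 1289 CPM with a median of 17.8, and 82 cells (27.9%) had 100 CPM or more. Cells that detected Gata4 therefore held it at a moderate level (median 100.7 CPM), and 75 cells had no read of it. Both genes were detected in 50.0% of cells, only Gata4 in 16 cells and neither in 23. The product of the 2 shares, formed inside every name series and added up, was 49.3%, so Gata4 was found with and without its relative about as often as their separate shares give. Of the other GATA genes, Gata3 was detected in 82 cells (27.9%), Gata5, an early heart factor, in 24 (8.16%) and Gata2, a blood and endothelial factor, in 10 (3.40%). The GATA cofactors Zfpm1 and Zfpm2, which encode the FOG proteins, were detected in 39.1% and 15.6% of cells.

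Among the T-box genes, Tbx20 stood at the other end of the scale from Tbx2 and Tbx3. Tbx20, on chromosome 9 (24718138 to 24774303, minus strand), ran from 0 to 8429 CPM with a median of 699.5, and 82.7% of cells had 100 CPM or more. Tbx3, on chromosome 5 (119670669 to 119684724, plus strand), had a highest value of 782.4 CPM but only 31.6 CPM as the median of its 40 detecting cells, and only 5 cells reached 100 CPM. Tbx2, on chromosome 11 (85832551 to 85841948, plus strand), reached 402.8 CPM, with a median of 84.6 CPM in its 22 detecting cells. Tbx2 and Tbx3, close relatives with overlapping repressor roles, shared 3 cells (1.02%), and the product of their shares was also 1.02%. Tbx20 was detected beside Tbx3 in 37 of 40 cells (product 33.4 cells) and beside Tbx2 in 18 of 22 (product 19.1 cells). Tbx18, a T-box gene of the epicardium and of vessel mural cells, was detected in 51.7% of cells, whereas Tbx5, a factor of the left ventricle and atria, was found in 4 (1.36%).

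Hand2 was common and low, Hand1 rare. Hand2, on chromosome 8 (57320983 to 57324633, plus strand), ran from 0 to 1209 CPM with a median of 8.20, and 55.1 CPM was the median of its detecting cells. Because that median lies close to the 10 CPM limit, its share moved with the limit: 190 cells (64.6%) had at least 1 read and 41 (13.9%) had 100 CPM or more. Of the Hand2 exon length, 19.6% lies opposite exons of the antisense gene Hand2os1, and whether the counting used strand is not given in the sources used here, so reads of these genes cannot be told apart there. Hand1, on chromosome 11 (57828705 to 57832818, minus strand), ran from 0 to 324.0 CPM, with 71.5 CPM as the median of its 23 detecting cells. Hand1 and Hand2 were detected together in 9 cells (3.06%), against a product of 3.95%. Tcf4 and Tcf12, which encode E proteins that pair with HAND factors, were detected in 84.7% and 73.5% of cells.

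Isl1, on chromosome 13 (116298281 to 116309689, minus strand), had any read in only 24 of all the cells. Its highest value was 737.2 CPM, the median of its 21 detecting cells was 83.2 CPM, and 10 cells reached 100 CPM. Hand2, an Isl1 partner in heart progenitors, was detected in 13 of the 21 Isl1 cells (product 10.5 cells), and Gata6 in 20 of 21 (product 18.1 cells). The glial factor Sox10 was detected in 0 of 21 Isl1 cells (upper limit 14.3%, taking 3 counts as the floor), against 14 of all other cells (5.13%). The product of the shares gives only 0.924 cells, so this count of 0 cannot show that Isl1 cells lack Sox10. Of the 8 glial markers, 3 or more were detected in 1 of 21 Isl1 cells and in 12 of all others. The endothelial receptor Kdr was detected in 3 of 21 Isl1 cells (14.3%) and 4 of all others (1.47%), and the endocardial receptor Npr3 in 6 (28.6%) and 29 (10.6%). Tagln, a smooth muscle gene, was in 12 of 21 Isl1 cells (57.1%) and in 79.1% of the others. The Isl1 cofactor Ldb1 was detected in 50.7% of all cells.

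Meox1, on chromosome 11 (101877510 to 101894374, minus strand), ran from 0 to 4081 CPM with a median of 41.5, and 39.5% of cells had 100 CPM or more. Its detecting cells had a median of 169.1 CPM, while 78 cells had no read. The related gene Meox2 was detected in 35 cells (11.9%).

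Levels can be set against each other only per length, here as mean CPM per kilobase of exon in GENCODE M21. Tbx20 had 94.1 and Meox1 82.3, because the Tbx20 exons sum to 11.997 kb and those of Meox1 to 2.23 kb. Gata6 had 47.1, Gata4 27.2, Hand2 20.3, Hand1 4.09, Isl1 2.59, Tbx2 2.29 and Tbx3 1.72 CPM per kilobase. Over detecting cells alone the order changed: Meox1 came first with a median of 75.9 CPM per kilobase (quartiles 25.1 to 172.8), then Tbx20 with 67.8 (27.02 to 132.3), Gata6 with 37.5 (18.7 to 80.3) and Hand1 with 35.8 (12.6 to 77.6). Gata4 (25.8), Hand2 (23.4), Tbx2 (23.3) and Isl1 (21.02) lay within a narrow band, and Tbx3 was lowest with 4.77 (2.99 to 9.70). Quartile ranges overlapped between all direct neighbours down to Isl1 and Tbx3, so a rarely detected factor such as Hand1 was, in the cells that had it, at a level in the range of the common ones. The 10 CPM limit is itself a higher level per kilobase for a short gene such as Hand1 than for a long one such as Tbx3.

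The shares differed between name series, most for Tbx20. Tbx20 was detected in 29 of 48 cells (60.4%, 45.3 to 74.2) in series 2 and in 84.2% to 100% of cells in the other series. Its median was 168.1 CPM in series 2 and 2485 CPM in series 3, where the lowest of 38 cells still had 30.3 CPM. In series 1, 58 of 58 cells detected Tbx20, and 53 had 100 CPM or more. Gata6 ran from 68.8% in series 2 to 97.7% in series 7, Gata4 from 33.3% in series 2 to 68.97% in series 1, Meox1 from 47.9% in series 2 to 77.6% in series 1, and Hand2 from 37.5% in series 2 to 63.2% in series 4. The 5 most widely detected factors thus all had their lowest share in series 2. Among the 2180 genes in at least 50% of cells, a set that leaves out Hand2, 11.6% were lowest in that series. Series 2 also held 8 of the 13 cells with 3 or more of 8 glial markers. Without those 13 cells, Tbx20 (67.5%) was still lowest in series 2, and Gata4 was nearly level between series 2 (40%) and series 6 (41.2%). Gata6 (80% in series 2, 76.5% in series 6), Meox1 (57.5% and 52.9%) and Hand2 (42.5% in series 2, 39.6% in series 1) were no longer lowest in series 2. None of the 9 factors spanned 40 points or more between its highest and lowest series, against 16.3% of the 8853 genes in at least 10% of cells. Tbx20 came closest with 39.6 points. The median span of those genes was 26.2 points. Tbx20, Gata4, Meox1 and Gata6 lay above that median, and Hand2 and Tbx3 below it. Tbx2, Hand1 and Isl1 were in under 10% of cells and are outside that comparison. So few factors cannot show whether they were steadier across series than other genes.

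The rarer factors did not follow that order. Tbx3 was highest in series 2, with 14 of 48 cells (29.2%), followed by series 1 with 12 of 58 (20.7%), and was lowest in series 7 with 2 of 44 (4.55%). Hand1 had no read in any of the 48 cells of series 2, for which a floor of 3 counts gives an upper limit of 6.25%, and was detected in 8 of 58 cells (13.8%) in series 1. In series 1, 32 cells had at least 1 Hand1 read, and 8 reached 10 CPM, none above 79.7 CPM. Tbx2 was between 2.63% in series 4 and 15.9% in series 7, and Isl1 between 3.45% in series 1 and 11.4% in series 7. The intervals of these small counts overlapped for Isl1 and for Tbx2 in all 7 series.

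**Figure D2:**
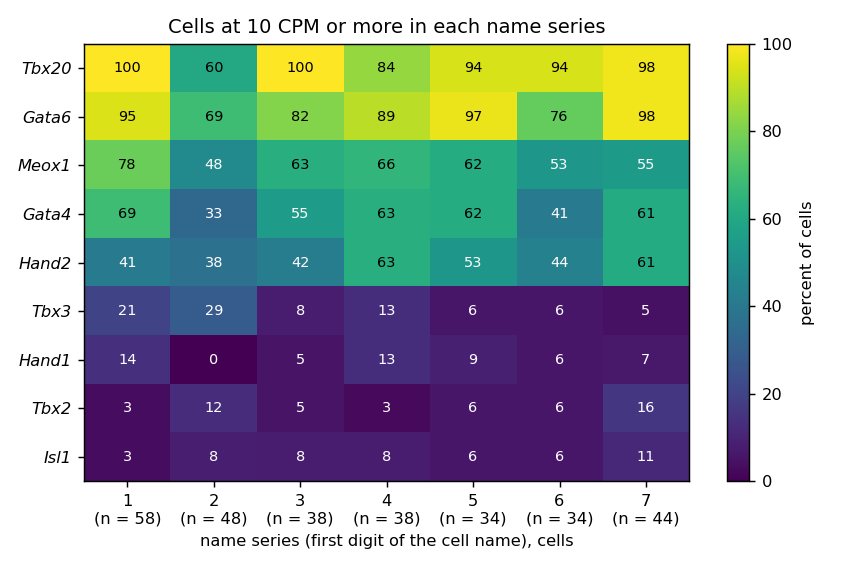
Rows are the genes, columns the 7 name series with their cell numbers, and each field gives the percent of cells at 10 CPM or more. Series 2 is the darkest column for the upper 5 genes and the lightest for Tbx3, and holds no Hand1 cell.

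A cell most often held several of the factors at once. The median was 4 of 9 detected (quartiles 3 and 5), 77.2% of cells had 3 to 5, 3 cells had 0 and 4 cells had 7. The median was 3 in series 2 and series 6 and 4 in the other 5 series. Tbx20 and Gata6 were detected together in 78.9% of cells (73.8 to 83.4), and 7 cells had neither. In all, 75 different combinations were seen, 37 of them in 1 cell each. The most frequent were Gata4, Gata6, Tbx20 and Meox1 with Hand2, and the same 4 without Hand2, each in 34 cells (11.6%, 8.14 to 15.8) and each in all 7 series. Gata6, Tbx20 and Meox1 came next with 20 cells, and with Hand2 added 18. Of Tbx2, Tbx3, Hand1 and Isl1, 68.7% of cells had none, 79 had 1, 12 had 2 and 1 had 3. Gata6 as the single detected factor marked 8 cells, 7 of which were in series 2.

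**Figure D3:**
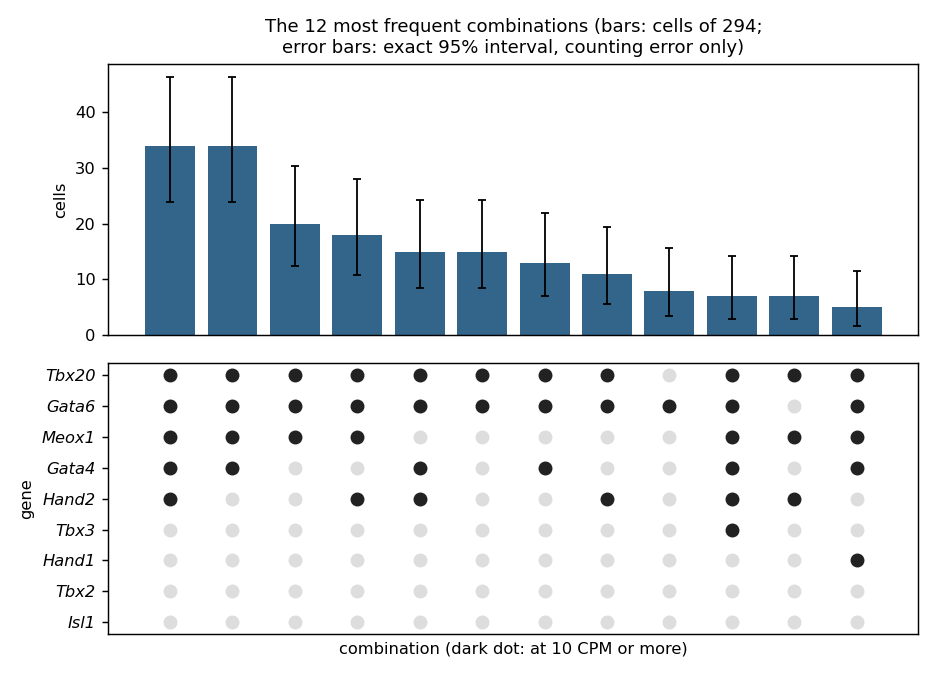
Bars give the number of cells with each of the 12 most frequent combinations, with exact 95% intervals for counting error, and dark dots below show which genes were at 10 CPM or more. The 2 leading combinations, of 34 cells each, differ only in Hand2, and 1 of the bars belongs to cells with Gata6 alone.

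The joint share of each pair of factors lay within a few points of the product of their shares in each name series. Of 36 pairs, 21 had a joint share above the product and 15 below or at it, and the product lay inside the exact 95% interval of the joint share for all 36. That interval does not hold the 2 shares fixed, and with a gene in nearly all cells the difference can only be small. It therefore cannot decide whether 2 factors are independent. The difference ran from 3.05 points for Gata4 with Tbx3 to -2.20 points for Tbx2 with Meox1. Without series 2, Tbx3 with Hand2 was highest (2.21 points), Gata4 with Tbx3 was at 1.47 points and Tbx2 with Meox1 at -1.86. Gata4 and Tbx3 were found together in 30 cells, where the product gives 21.04, and the joint share was above the product in each of the 7 series, so 30 of 40 Tbx3 cells had Gata4. Tbx2 and Meox1 shared 6 cells where the product gives 12.5, and were below it in 6 of 7 series. Tbx3 and Hand2 shared 24 cells where the product gives 17.8 (2.11 points, above in 6 of 7 series). All 23 Hand1 cells had Gata6, where the product gives 21.1. These differences are descriptions across cells that share a library series and a depth range, and no test was made of them.

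Gata4, Tbx20 and Meox1 were the trio with the next highest differences. Gata4 and Tbx20, partners on heart enhancers, were detected together in 54.1% of cells (product 51.1%), and only 4 Gata4 cells lacked Tbx20. Gata4 with Meox1 gave 2.77 points, and Tbx20 with Meox1 gave 2.68 points, with 8 of 180 Meox1 cells lacking Tbx20. These differences rested largely on series 2: without it, that of Gata4 with Tbx20 went from 2.99 to 1.00 points, that of Gata4 with Meox1 to 1.14 and that of Tbx20 with Meox1 to 0.32. Gata6 with Tbx20 was at the product (-0.04 points), and Gata4 with Hand2 (0.88 points) and Gata6 with Hand2 (0.34 points) were close to it.

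**Figure D4:**
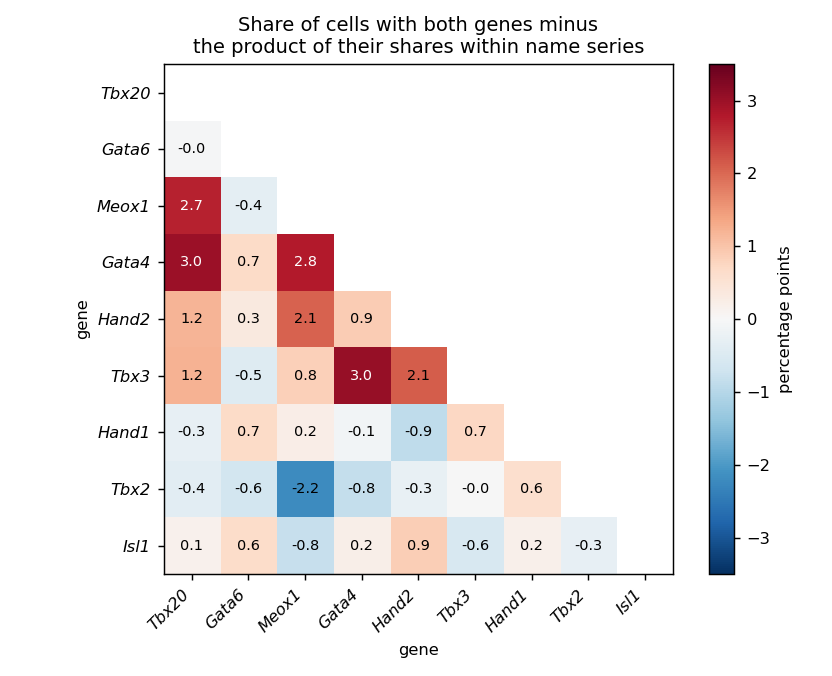
Each field gives, for a pair of genes, the percent of cells with both minus the product of their shares within name series, in percentage points. The fields run from -2.20 points for Tbx2 with Meox1 to 3.05 points for Gata4 with Tbx3. The product lies inside the exact interval of the joint share for every pair, which does not show the pairs to be independent.

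Within series 2 the trio moved together cell by cell. Spearman's correlation of log2(CPM + 1) over the 48 cells of series 2 was 0.67 for Tbx20 with Meox1, 0.62 for Gata4 with Tbx20 and 0.57 for Gata4 with Meox1. In the other series these correlations ran from -0.14 to 0.38, from -0.10 to 0.21 and from -0.28 to 0.23. Gata6 did not join them: with Tbx20 it had 0.08 in series 2. Other pairs did in part: Gata4 with Tbx3 gave 0.53 there, Tbx20 with Tbx3 0.43 and Tbx20 with Hand2 0.36. Tbx3 with Meox1 gave 0.28, Hand2 with Meox1 0.26 and Gata4 with Hand2 0.12. All these values include the cells of series 2 with glial markers. Of the 30 cells without Tbx20, 19 were in series 2. Part of series 2 was cells with glial markers, so those were set apart first, by a limit chosen after values had been seen: 13 cells had 3 or more of 8 glial markers, 8 of them in series 2 and 5 in series 1.

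In the 13 cells with glial markers, Gata4, Gata6, Tbx20, Hand2 and Meox1 were less often detected than in the others, mainly through the 8 cells of series 2. Gata6 was detected in 5 of 13 (38.5%, 13.9 to 68.4) and in 250 of the other cells (88.97%, 84.7 to 92.4), and Tbx20 in 7 of 13 (53.8%, 25.1 to 80.8) and 91.5% of the others (87.6 to 94.5). Gata4 and Meox1 were each in 3 of 13 (23.1%, 5.04 to 53.8), against 56.9% (50.9 to 62.8) and 62.99% (57.1 to 68.6) of the others. Hand2 was in 4 of 13 (30.8%, 9.09 to 61.4) and 49.1% of the others (43.1 to 55.1). The intervals overlapped for Gata4 and for Hand2. In the 8 such cells of series 2, Gata4 and Meox1 were detected in 0, Gata6 and Hand2 in 1 each and Tbx20 in 2. In the 5 of series 1, Tbx20 was detected in 5, Gata6 in 4 and Gata4 and Meox1 in 3 each, shares taken as upper limits in that series. Hand2 was in 3 of these 5, against 39.6% of the other cells of series 1. Tbx2 and Tbx3 went the other way, with Tbx2 in 4 of 13 (30.8%, 9.09 to 61.4) and 18 of the others (6.41%, 3.84 to 9.94), and Tbx3 in 5 of 13 (38.5%) and 35 of the others (12.5%, 8.83 to 16.9). The intervals of the Tbx2 shares overlap, as do those of the Tbx3 shares. All 13 of these cells also had Postn and Col3a1, matrix genes of mesenchyme, at 10 CPM or more, as did nearly all other cells (97.9% and 99.6%).

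The 40 cells of series 2 with fewer than 3 glial markers were then divided by Tbx20, a division chosen after the correlations above had been seen, so that it shows them cell by cell and adds no support to them. Gata4 was detected in 16 of the 27 with Tbx20 (59.3%, 38.8 to 77.6) and in 0 of the 13 without it (upper limit 23.1%, again from 3 counts). The highest Gata4 value in those 13 cells was 1.51 CPM, while the 27 ran from 0 to 905.4 CPM with a median of 16.6. Meox1 was in 21 of 27 (77.8%, 57.7 to 91.4) and 2 of 13 (15.4%, 1.92 to 45.4). Tbx3 was in 11 of 27 (40.7%, 22.4 to 61.2) and had no read in the 13. These 3 factors were 40 points or more higher with Tbx20. So were 0.491% of the 8962 genes detected in at least 10% of the same cells. None of the other factors was 40 points or more lower, as were 0.837% of those genes. A gene in few of these cells cannot reach 40 points, and the division was chosen after the correlations were seen. These percentages are therefore no measure of enrichment. Hand2 was in 14 of 27 and 3 of 13, with overlapping intervals. Gata6 stood on the other side: 12 of the 13 cells without Tbx20 had it (92.3%, 63.97 to 99.8), with a median of 317.1 CPM, and 20 of 27 with Tbx20 (74.1%, 53.7 to 88.9), with a median of 96.7 CPM, so the intervals overlapped. Its difference of -18.2 points turned to 10.8 points where 1 read counted as detected.

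By median, the 13 cells without Tbx20 were not the shallower ones, but the ranges overlapped widely. They had a median of 1958230 reads (133793 to 2946310) and 4658 genes (2862 to 6783). The 27 had 1579550 reads (34046 to 2344460) and 4343 genes (3055 to 5977). Whether depth has a part in the missing Tbx20 was not tested. Marker genes of the 13 and the 27 cells were set side by side. Smooth muscle markers (3 or more of 7) were in 11 of 13 and 14 of 27, and their summed level ran from 23.1 to 38715 CPM (median 4983) and from 3.74 to 16631 CPM (median 697.4). Chosen after their values were seen, Cdkn1c, a cell cycle inhibitor, was in 13 of 13 and 14 of 27, Osr1 in 9 of 13 and 5 of 27, and Sox9, a factor of cushion mesenchyme, in 6 of 13 and 24 of 27. The intervals of the shares overlapped for the smooth muscle list and for Sox9, and did not for Cdkn1c and Osr1. What part these differences have in the levels of Gata4, Meox1 and Tbx3 was not tested. Outside series 2, only 11 cells with fewer than 3 glial markers lacked Tbx20. There Gata4 was in 4 of these 11 and in 140 of 230 with Tbx20, Meox1 in 6 of 11 and 64.3% of 230, and Gata6 in 10 of 11 and 90.4% of 230, with overlapping intervals for each.

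**Figure D5:**
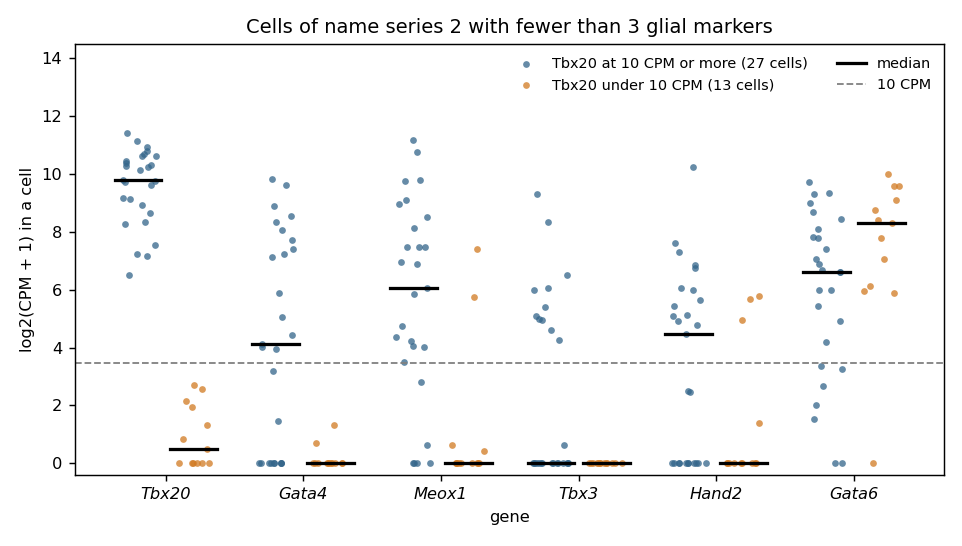
Points give log2(CPM + 1) of 6 genes in the 40 cells of series 2 with fewer than 3 glial markers, in blue the 27 with Tbx20 at 10 CPM or more and in orange the 13 below it, with medians as bars and 10 CPM as the dashed line. No orange point for Gata4 or Tbx3 reaches the line, 2 do for Meox1, and 12 of 13 do for Gata6.

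Few genes varied with the factors in a like way in all name series. By the rule used, a gene was named where the median of its Spearman correlations over the series was 0.30 or more and above 0 in every series that gave a value. For Tbx20, 2 of 8591 genes (0.0233%) passed: Vcan, the matrix proteoglycan versican of the cushions, with 0.44 (0.01 to 0.59 over 7 series) and Snai1, a factor of the epithelial to mesenchymal change, with 0.31 (0.03 to 0.39). For Meox1, 3 genes (0.0349%) passed: Pdlim3, an actin-binding protein of muscle, with 0.37 (0.07 to 0.42), Scx, the tendon and valve factor scleraxis, with 0.33 (0.08 to 0.41), and the non-coding Dleu2 with 0.33. Gata4 had 2 genes (0.0233%), Rapgef4 with 0.31 over 6 series and Tmf1 with 0.31 over 7. No gene passed for Gata6 or Hand2, and for Tbx3 too few series gave a value. In the SCT table, the authors' second one, Snai1 and Tmf1 no longer passed, and Rapgef4 was lost where genes had to be detected in 30% of cells. These correlations run across cells that share a library series, and both genes of a pair are scaled by the same cell total.

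For the 3 rarest factors, likeness was the share of cells with both genes among cells with either (Jaccard index). Coro2b, an actin regulator, was highest for Tbx2 (0.229): it was detected in 21 cells, 8 of them among the 22 Tbx2 cells, of which 3 were outside series 2. Chac2, an enzyme that breaks down glutathione, was highest for Hand1 (0.295), with 13 shared cells of its 34, 5 of them outside series 1. Fam122b was highest for Isl1 (0.192), with 10 of its 41 cells, 7 of these outside series 2. The chemokine receptor gene Cx3cr1 was detected in 6 cells, all of them Hand1 cells, and all in series 1. The endothelial adhesion gene Pecam1 was in 7 of 23 Hand1 cells (30.4%) and 15 of the others (5.54%), and 1 of the 7 was outside series 1. The smooth muscle gene Tagln was in 22 of 23 Hand1 cells (95.7%) and 76.01% of the others, 14 of the 22 outside series 1, where the product of the shares gives 11.3 cells. Of the other smooth muscle genes, Cnn1 was in 16 Hand1 cells (product 11.1), 10 of them outside series 1 (product 7.27). Acta2 was in 15, where the product gives 15.9, and Myh11 in 8 (product 3.07), all in series 1. Of the Hand1 cells, 78.3% had 3 or more of the 7 smooth muscle markers, against 62.7% of the others.

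Among 51 of 56 related factors and cofactors that had a row, 13 were detected in at least 50% of cells, 21 in 10% to 50% and 17 in under 10%, with Sox9 (85.4%), Tcf4 (84.7%) and Meis2 (82.3%) the highest. The 9 factors had a median share of 48.3%, the 51 related genes 25.2% and all 15124 genes 14.6%. Among 17 of 20 genes reported as targets of these factors, 4 were in at least 50% of cells, 8 in 10% to 50% and 5 in under 10%. Postn (97.96%), Vcan (95.6%) and Tgfb2 (84.01%), genes of cushion matrix and signalling, were the highest. Nppa and Gja5, chamber muscle targets that TBX2 and TBX3 repress, were each in 3 cells (1.02%). Sema3c, a GATA6 target that guides neural crest cells into the outflow tract, was detected in 74 cells (25.2%), and its correlation with Gata6 had a median of 0.05 over the series that gave one.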

How the data were processed

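RNA of single cells was measured, 1 library per cell. The deposited raw table holds counts of reads per gene, and the authors' other table (named SCT) holds whole-number values treated here as a score and used only as an alternative. The submitters' processing notes name HISAT2 2.1.0, featureCounts, Seurat and mm10, without their roles; annotation and strand setting are not given in the sources used here. Loci and exon lengths come from GENCODE M21 on GRCm38.

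Counts were scaled to 1e+06 reads in each cell (CPM). Shares carry exact Clopper-Pearson 95% intervals. For a count of 0 the upper limit is instead 3 counts over the number of cells. Co-detection was compared with the product of shares within each name series (cells whose names start with the same digit). Correlations used log2(CPM + 1) in genes detected in at least 10% of cells, in series with both genes in 3 or more cells, and at least 5 such series. Named genes were the 9 factors, the 3 highest genes of each list with those that define a cell type, up to 3 genes per side by correlation and up to 5 by Jaccard index; some of these are not reported here. The calculations of co-detection and correlation were tested on simulated data. Cells are not replicates and no animal is named, so no test was run. No doublet caller was run, since capture sites were imaged. Members and lists were chosen with earlier results of these data known. Python 3.11.15, numpy 2.4.6, pandas 2.3.3, scipy 1.17.1 and matplotlib 3.10.9 were used. Alternatives were other detection limits, the SCT table, thinning to 250000 reads, cells with 500000 reads or more, and leaving out each name series or the cells with glial markers, the last chosen after seeing the data.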

Additional observations from a re-analysis of the deposited data

How the results depend on the processing

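The number of pairs above their product ran from 15 to 28 under the alternatives run. Counting 1 read as detected gave a median of 5 factors per cell, a most frequent combination (Gata4, Gata6, Tbx20, Hand2 and Meox1) in 17.7% of cells and 4 factors spanning 40 points across name series. The SCT table gave 5, 19.4% for the same combination, and 4. At 100 CPM, 2 factors (Gata6 and Tbx20) were in at least 50% of cells, the median was 2, Gata6 with Tbx20 led with 17.3%, and 1 factor spanned 40 points. The count of factors spanning 40 points was also 1 at 5 CPM, in cells thinned to 250000 reads and in cells with 500000 reads or more. Without series 3, 5 of the 9 factors kept their rank in level per kilobase, and leaving out each other series kept 6 to 9. Without series 2, Tbx20 was detected in 95.5% of cells. In series 2, the difference of Gata6 with and without Tbx20 turned from -18.2 to 10.8 points at 1 read and to 20 points in the SCT table. Those of Gata4 and Meox1 fell to 39.2 and 40.2 points at 1 read, and to 38.5 and 42.9 points with a limit of 100 CPM, applied to Tbx20 too. The causes were not tested. In the 25 cells under 250000 reads, a gene at 10 CPM rests on few reads. No paired analysis was possible because the cells form 1 group. The series 2 and per-kilobase alternatives were chosen after seeing the data.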
